A study of Homo sapiens with 4 samples.

Results

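The EGF family ligands examined here are 6 genes taken by name from the deposited gene table of 16834 genes: AREG, EREG, HBEGF, TGFA, BTC and NRG1. All 6 are in the table. The cells, labelled as the human pancreatic ductal adenocarcinoma (PDAC) line MIA PaCa-2 with a wild-type genotype, received no drug (control) or, over 12 h, neobractatin (NBT, a plant-derived compound) at 1 µM, the MEK inhibitor trametinib at 5 µM, or both drugs at these doses (combination). There was 1 library for each of the 4 conditions, so no value below has a replicate check, and a difference between libraries includes an unmeasured variation between cultures. The libraries held between 18776212 and 19614763 estimated read counts.

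The trametinib labels and the line were checked with marker genes. No marker was used to check the NBT labels. Trametinib blocks the MAPK pathway, and of 10 genes known to report its output, 9 were called lower than control in the trametinib library and the same number in the combination library, by the limits defined below. Of all genes tested, 2.15% and 3.69% were called lower. The remaining gene, EPHA4, had 0 or 1 counts in each library. MIA PaCa-2 is known for a deletion that removes CDKN2A and MTAP, for abundant vimentin and for a lack of E-cadherin. In these libraries CDKN2A stood between 248.78 and 341.89 TPM (a level scaled to gene length and library) and MTAP between 13.16 and 19.9 TPM. CDH1, the E-cadherin gene, stood between 51.21 and 86.91 TPM, above VIM, the vimentin gene, at 11.48 to 26.39 TPM. These levels go against the line named in the labels in all 4 libraries alike. The labels also enter a differently numbered cell line for each treated library. The epithelial genes KRT8, KRT18, EPCAM and CDH1 were all present, while PTPRC, PECAM1 and COL1A1, markers of leukocytes, endothelium and fibroblasts, reached 1.69 TPM at most. The summed TPM of 5 markers (these 4 and VIM) was 7280.04 in control, 6118.54 under NBT, 3584.25 under trametinib and 2789.58 under both. KRT8 and KRT18 carried most of this sum. KRT18 was called lower and VIM higher in both trametinib-treated libraries, KRT8 was called lower in the combination library, and EPCAM and CDH1 were not called against control in either. The part of these differences in the results below was not tested. In a bulk library, fewer cells of a type and less RNA per cell cannot be told apart.

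EGF family ligands are made as membrane-bound precursors and are released by metalloproteases at the cell surface. AREG, EREG, HBEGF, TGFA and BTC bind the receptor EGFR, and EREG, HBEGF and BTC also bind ERBB4, whereas NRG1 binds ERBB3 and ERBB4. Ligand binding pairs the receptors, and the signal runs through RAS, RAF, MEK and ERK and through PI3K and AKT. In epithelial tumor cells, PDAC included, several of the ligand genes are known targets of the ERK pathway, so that the family forms a positive loop around it.

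The 250 bases before the RefSeq start of 4 ligand genes are printed so that the starts of the EGFR ligand genes called against control, AREG, HBEGF and TGFA, can be read beside that of EREG, the scarce neighbor of AREG. Sequences are from RefSeq (GRCh38.p14), run 5′ to 3′ on the gene's strand, and end at the base before the start. Capitals mark matches, on either strand, to the motifs of CRE (TGACGTCA), ETS factors (CCGGAA), AP-1 (TGANTCA), ATF4 (TGATGNAAT) and NRF2 (TGACNNNGC).
AREG, plus strand, chr4:74444886-74445135: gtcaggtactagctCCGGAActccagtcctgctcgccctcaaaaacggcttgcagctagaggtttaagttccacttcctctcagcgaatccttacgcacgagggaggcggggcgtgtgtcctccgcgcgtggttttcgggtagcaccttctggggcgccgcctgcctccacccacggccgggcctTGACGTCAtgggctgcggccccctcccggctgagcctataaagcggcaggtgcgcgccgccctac
EREG, plus strand, chr4:74364895-74365144: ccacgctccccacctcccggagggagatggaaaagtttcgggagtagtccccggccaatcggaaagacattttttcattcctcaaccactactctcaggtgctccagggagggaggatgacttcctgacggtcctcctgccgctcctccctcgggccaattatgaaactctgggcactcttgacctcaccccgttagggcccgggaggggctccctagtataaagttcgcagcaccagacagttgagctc
HBEGF, minus strand, chr5:140346604-140346853: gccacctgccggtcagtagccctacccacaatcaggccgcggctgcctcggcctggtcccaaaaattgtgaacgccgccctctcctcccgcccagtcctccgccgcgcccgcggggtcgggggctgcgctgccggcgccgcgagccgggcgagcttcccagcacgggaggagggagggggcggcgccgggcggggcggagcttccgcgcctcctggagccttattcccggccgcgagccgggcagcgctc
TGFA, minus strand, chr2:70553827-70554076: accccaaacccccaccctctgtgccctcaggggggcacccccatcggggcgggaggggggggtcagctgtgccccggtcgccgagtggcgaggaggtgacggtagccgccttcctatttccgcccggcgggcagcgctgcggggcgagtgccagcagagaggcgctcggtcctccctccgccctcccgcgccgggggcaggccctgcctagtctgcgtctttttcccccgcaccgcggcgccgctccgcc

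AREG was the only printed window with a match. Its CRE match spans positions -65 to -58 counted from the start, and its ETS match spans -236 to -231. No match overlapped another. Among 35116 RefSeq windows of this length, 1.65% held the CRE letters, 14.5% the ETS letters, 6.57% the AP-1, 0.888% the ATF4 and 10.9% the NRF2 letters. Windows were found for 5 ligands, with a second start for TGFA that held 1 ETS match. The window of BTC had no match. A match is a description of letters and not a bound site.

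Before the comparisons, genes were called from the counts of 2 libraries by an exact two-sided binomial test, with limits of 0.05 on the Benjamini-Hochberg adjusted value and of 1 on the absolute log2 fold change. This test compares libraries and not conditions, so no p-value is given. "Rose" and "fell" below refer to these limits. The 95% intervals of fold changes were derived from exact (Clopper-Pearson) limits on a library's share of the reads of both. Log2 fold changes were computed from counts scaled to library sums with 0.5 reads added.

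AREG, which encodes amphiregulin, rose with NBT, fell with trametinib and was above control with the combination. Its counts were 692 (control), 1680 (NBT), 281 (trametinib) and 1463 (combination), or 36.9, 86.4, 14.8 and 74.6 CPM (counts scaled to the library sum). The NBT-treated libraries were the high ones, and the trametinib library the low one. Against control, AREG rose with NBT by a log2 fold change of 1.23 (interval from 1.10 to 1.36) and fell with trametinib (-1.31, from -1.52 to -1.11). With the combination it stood 2.02-fold above control (log2 fold change 1.02, from 0.89 to 1.15), so close to the limit that the call was lost under TMM scaling (0.99), median-of-ratios scaling (0.98) and the deposited TPM values (0.98). Set against trametinib alone, the combination library held 5.03-fold more AREG (2.33, from 2.15 to 2.52). Set against NBT alone it held somewhat less (-0.21, from -0.31 to -0.11), short of the limit. The log2 difference with trametinib was thus -1.31 in the absence of NBT and -0.21 in its presence.

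HBEGF, the gene of heparin-binding EGF-like growth factor, rose with NBT and fell with trametinib, and unlike AREG it was not above control with the combination. Its counts were 147 (control), 395 (NBT), 40 (trametinib) and 101 (combination). The order of the libraries was NBT, control, combination and trametinib. HBEGF rose with NBT (log2 fold change 1.37, interval from 1.10 to 1.66) and fell with trametinib (-1.88, from -2.43 to -1.38). Trametinib on top of NBT went with a fall of nearly the same size (-1.98, from -2.31 to -1.66), and NBT on top of trametinib with a rise (1.28, from 0.74 to 1.85). The combination library stayed below control by -0.60 (from -0.98 to -0.23) and was not called.

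TGFA, which encodes transforming growth factor alpha, was lower in both trametinib-treated libraries. It had 1462 counts in control and 1544 with NBT, but 490 with trametinib and 456 with the combination. The libraries formed a high and a low pair by trametinib, whether or not NBT was present. TGFA fell with trametinib (log2 fold change -1.59, interval from -1.74 to -1.44) and with the combination (-1.74, from -1.90 to -1.59). It also fell in the combination against NBT alone (-1.77, from -1.93 to -1.62). For NBT the intervals included 0, at 0.03 (from -0.08 to 0.13) against control and at -0.15 (from -0.34 to 0.03) on top of trametinib.

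NRG1, the gene of neuregulin 1, lies on chromosome 8 from 31639245 to 32774046 (GRCh38.p14) and had the most counts of the family. These were 2038 (control), 1992 (NBT), 899 (trametinib) and 1572 (combination). The trametinib library was the low one, and the combination library lay between it and control. NRG1 fell with trametinib (log2 fold change -1.19, interval from -1.31 to -1.08). It stood at -0.08 (from -0.17 to 0.01) with NBT and at -0.44 (from -0.53 to -0.34) with the combination, neither past the limit. In the combination against trametinib alone it stood at 0.76 (from 0.64 to 0.88), also short of the limit. The deposited TPM values moved the combination against control to -0.15, so the size of that difference depends on the unit.

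EREG and BTC, which encode epiregulin and betacellulin, were near the floor of detection. EREG had 17, 21, 16 and 20 counts in control, NBT, trametinib and combination, and all of its intervals included 0. Its interval for NBT reached from -0.74 to 1.27, so that a difference as large as that of AREG (1.23) was within it. BTC had 2, 8, 0 and 8 counts in the same order. The trametinib library was the one without a read, which allows up to 0.158 CPM. BTC was called higher in the combination than in trametinib alone. With the library at 0 set to the floor of 3 counts the ratio was 2.58, a value that leaves out counting error. The counts of BTC were too few to be tested under a minimum of 10 counts. The ratio of NBT to control was 3.86, with an interval from 0.77 to 37.3, so a difference was not detectable at this depth.

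**Figure D1:**
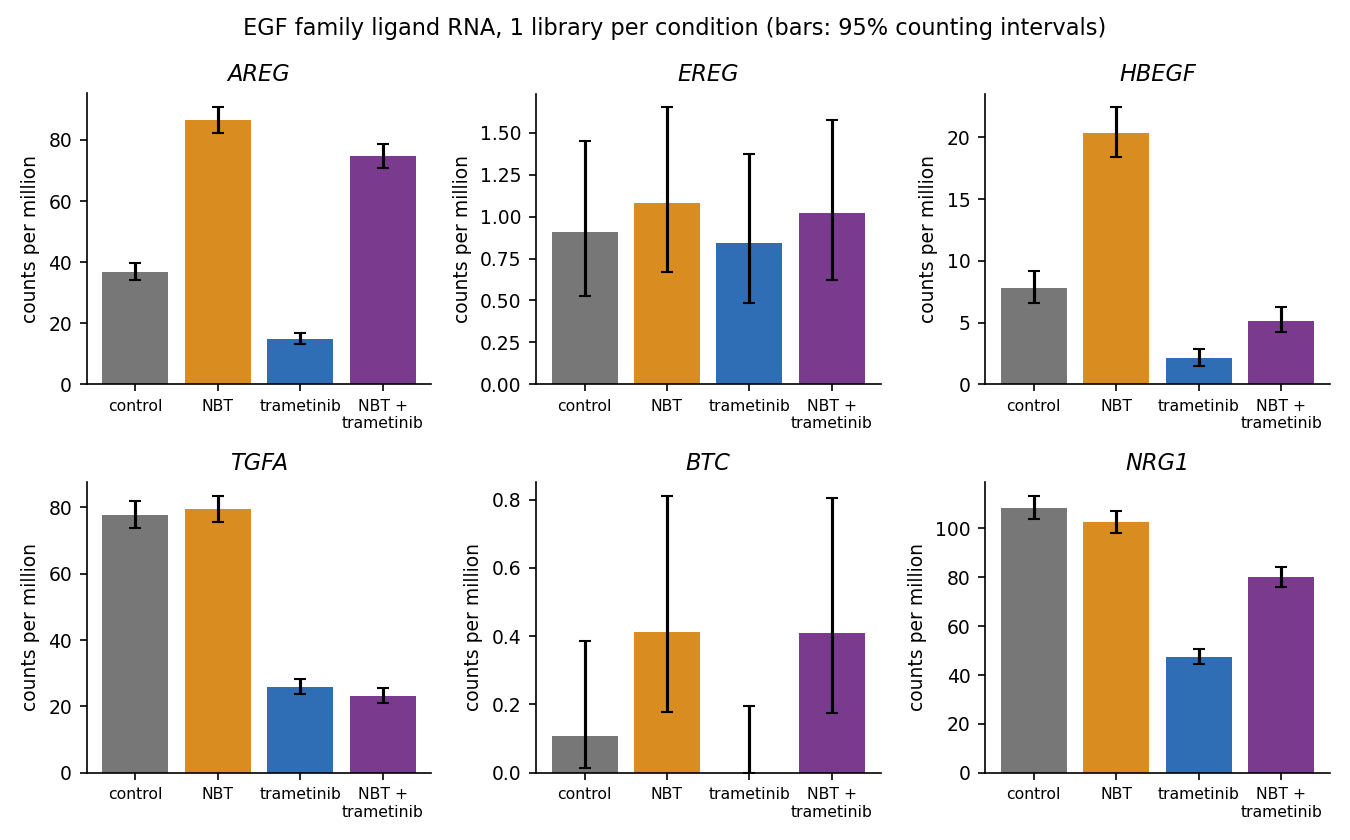
CPM of the 6 ligands in the control, NBT, trametinib and combination libraries (1 bar per library, linear axis from 0, error bars are 95% Poisson counting intervals). AREG reached 86.4 with NBT and 74.6 with the combination against 36.9 in control, whereas TGFA stood at 25.9 and 23.2 in the 2 trametinib-treated libraries against 77.9 in control.

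By these limits, 2 of the 6 ligands (AREG and HBEGF) rose with NBT and 0 fell, where 2.61% of all 15888 genes tested were called (1.6% higher and 1.01% lower). With trametinib 4 of 6 (AREG, HBEGF, TGFA and NRG1) fell and 0 rose, against 5.96% of all genes called (3.82% higher and 2.15% lower). With the combination 1 rose (AREG) and 1 fell (TGFA), against 8.42% of all genes (4.73% higher and 3.69% lower). In the combination against trametinib alone, 3 rose (AREG, HBEGF and BTC, the last not tested under a minimum of 10 counts) and 0 fell, against 6.11% (2.56% higher and 3.55% lower). In the combination against NBT alone, 2 fell (HBEGF and TGFA) and 0 rose, against 4.36% (2.38% higher and 1.99% lower). Against control, the 6 ligands had median log2 fold changes of 0.74 (NBT), -1.45 (trametinib) and -0.14 (combination), beside medians of -0.01, 0.08 and 0.05 over all genes tested. The medians of the combination against trametinib and against NBT were 1.02 and -0.28, beside -0.05 and 0.03. The first 3 comparisons share the control library. Among the 11081 genes with at least 50 counts in control or NBT, AREG and HBEGF stood at percentiles 99.1 and 99.4 of the log2 fold change with NBT. With trametinib the 4 called ligands stood between percentiles 0.749 and 1.77. These ligands were picked by calls on the same fold changes, so ranks near the ends follow in part from the calls. TGFA (0.03) and NRG1 (-0.08) were not called with NBT and are not ranked here.

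**Figure D2:**
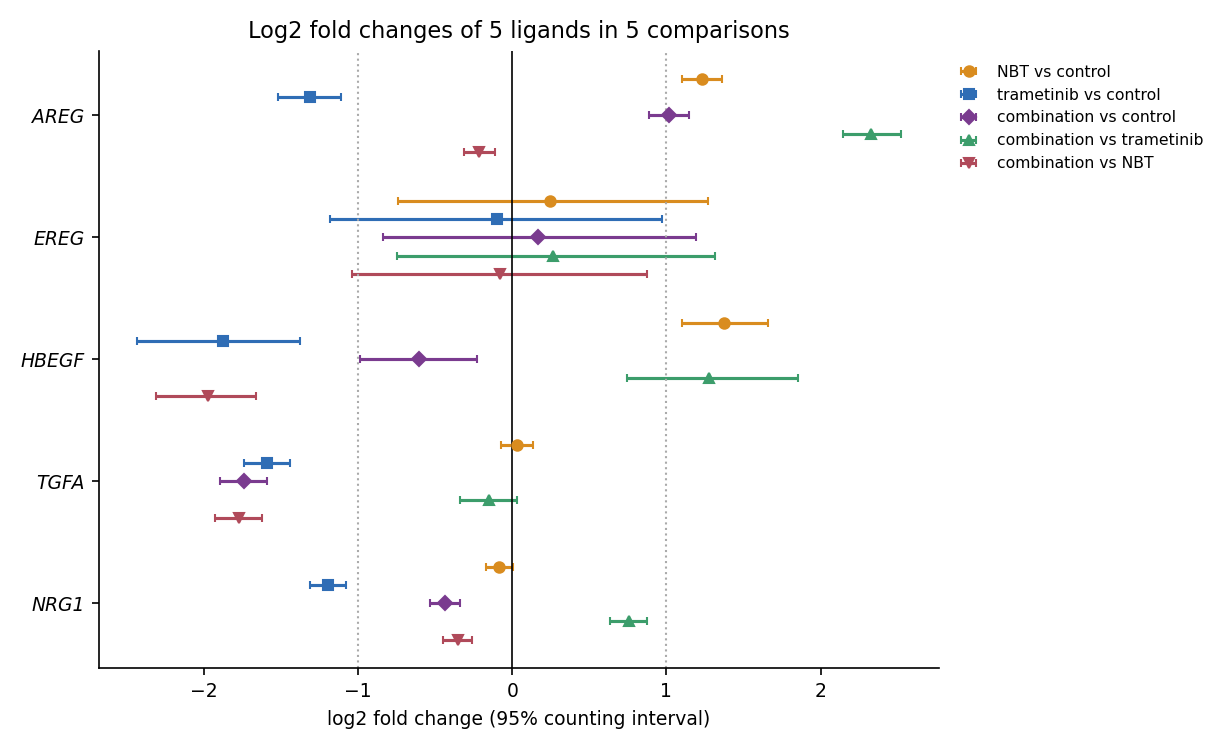
Log2 fold changes of 5 ligands (rows) in 5 comparisons (colors and symbols), with 95% counting intervals; dotted lines mark the limit of 1 in either direction, and BTC is left out because of its low counts. AREG changed sides between trametinib (-1.31) and the combination (1.02), while TGFA stayed at -1.59 and -1.74.

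The sum of ligand RNA and its makeup followed from these changes. In TPM, the 6 ligands summed to 163.37 (control), 249.18 (NBT), 65.7 (trametinib) and 187.73 (combination). The 5 EGFR ligands without NRG1 summed to 104.79, 189, 38.12 and 135.07 TPM in the same order. The combination library thus held 3.54-fold the EGFR ligand RNA of the trametinib library and 1.29-fold that of control. AREG made up 57.8% of the EGFR ligand RNA in the control library, 71.8% under NBT, 62.8% under trametinib and 88.3% under both. TGFA, the second ligand in control with 35.5%, made up 8.0% with the combination. In control, AREG (60.54 TPM) and NRG1 (58.58 TPM) were at nearly the same level, and in the combination library AREG (119.31 TPM) stood above NRG1 (52.66 TPM).

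**Figure D3:**
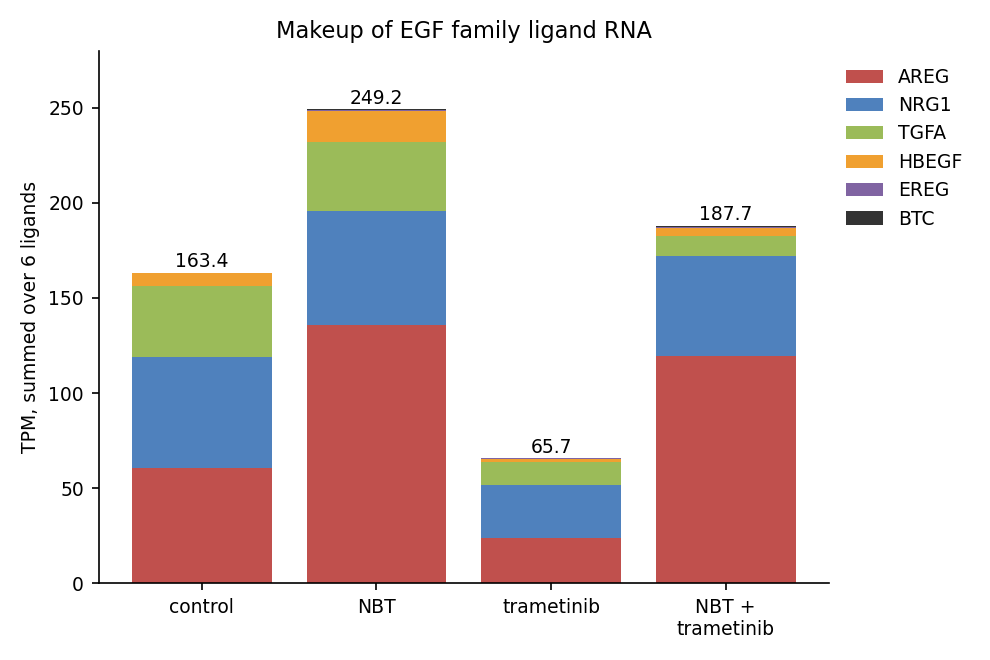
Deposited TPM of the 6 ligands stacked by library, with the sum above each bar. The sum was 65.7 with trametinib and 187.73 with the combination, and AREG (bottom segment) made up 36.4% and 63.6% of it.

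The log2 fold change of the combination was also set against that of NBT plus that of trametinib. For AREG the single drugs summed to -0.08, whereas the combination gave 1.02, a departure of 1.10 (95% interval from counting error, from 0.88 to 1.32). AREG stood at percentile 99.3 of the departures of 11367 genes with at least 50 counts in a library, of which 0.897% departed by 1 or more. NRG1 departed in the same direction, by 0.84 (from 0.69 to 0.99), at percentile 98.6. HBEGF (-0.10, from -0.69 to 0.49) and TGFA (-0.18, from -0.39 to 0.03) had intervals that included 0, at percentiles 39.9 and 28.9. The departures of AREG and NRG1 under 5 other ways of computing them lay between 1.09 and 1.15 and between 0.84 and 0.89. With 1 culture per condition, a departure cannot be told apart from variation between cultures.

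**Figure D4:**
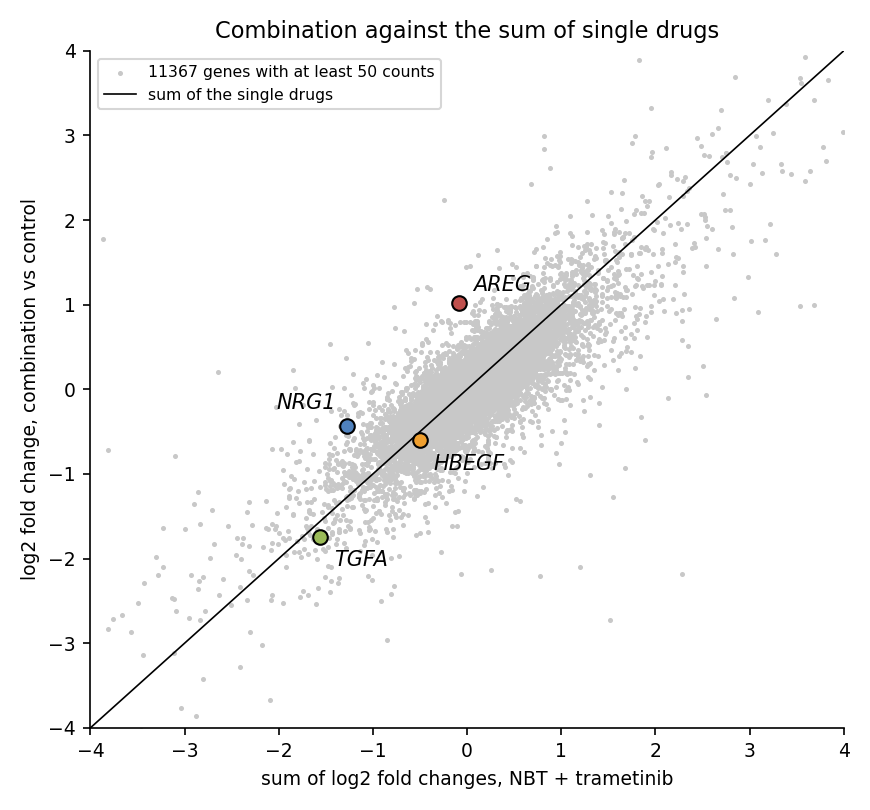
Log2 fold change of the combination against control (vertical) plotted over the sum of the log2 fold changes of NBT and trametinib (horizontal) for 11367 genes (gray) and 4 ligands; the line marks equality, and 50 genes lie outside the axes. AREG and NRG1 lie above the line by 1.10 and 0.84, and HBEGF and TGFA lie near it.

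The transcript table assigned AREG, EREG and HBEGF to 1 RefSeq transcript each, BTC to 3, TGFA to 4 and NRG1 to 28. The division of reads among transcripts is an estimate with no replicate. For TGFA, NM_003236.4 took an estimated 55.1% of the gene's counts in the control library, 37.4% under NBT, 71.4% under trametinib and 25.4% under both. NM_001099691.3 took 39.0%, 56.8%, 12.4% and 66.6%. In both NBT-treated libraries the second transcript was thus the major one, although the gene's total did not differ by NBT beyond counting error. For NRG1, NM_013958.3 took 17.4% of the counts in control and 32.0% with the combination, with 24.6% and 24.2% for the single drugs. Its counts were 356 in control and 503 with the combination, while those of NM_001159996.2, the transcript with most counts in control, were 517 and 350. In these estimates, the NRG1 total is a sum over transcripts that differed in direction.

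For each ligand with enough counts, the genes with the most similar pattern were found by the distance between the 3 log2 fold changes against control, among 10661 other genes with at least 100 counts in a library. AREG was nearest to ARHGEF2 (distance 0.34), which encodes a guanine nucleotide exchange factor and had 1301, 3887, 556 and 3055 counts in control, NBT, trametinib and combination. Next were SERPINE2 (0.47), a protease inhibitor gene, and FOXA1 (0.52), a transcription factor gene of epithelial cells. HBEGF was nearest to IL1A (0.25), the gene of the cytokine interleukin 1 alpha, with 373, 904, 114 and 236 counts, followed by LAT2 (0.45) and THBD (0.71), which encodes thrombomodulin. TGFA was nearest to TINAGL1 (0.14), NEDD4L (0.19), a ubiquitin ligase gene, and KCNN4 (0.20), a potassium channel gene. NRG1 was nearest to IER5 (0.18), an immediate early response gene, and MINDY4 (0.18). The ligands were not among each other's nearest genes, and the closest pair, TGFA and NRG1, was 1.37 apart. These distances rest on 3 ratios that share the control library and are descriptions.

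The remaining EGF family ligand genes were scarce. EGF, EPGN, NRG2, NRG3 and NRG4 together reached 2.12 TPM at most, and 0 of the 5 were called in any of the 5 comparisons. Of all genes, 2.61% to 8.42% were called, so 0 of 5 is near the background. NRG4 had the most counts of them, between 70 and 110. The medians of this list lay between -0.26 and -0.01, beside medians between -0.05 and 0.08 over all genes. With the TPM values, the list's median in the combination against trametinib was 0.52 instead of -0.05, so its sign depends on the unit.

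Of the 4 receptor genes, 0 passed the limits in any comparison. Between 2.61% and 8.42% of all genes were called in these comparisons, so 0 of 4 is near the background. EGFR stood at 125.68 (control), 143.3 (NBT), 116.82 (trametinib) and 149.81 TPM (combination), in each library above the level of any single ligand. ERBB2, the coreceptor without a ligand of its own, had 1601, 1249, 2571 and 1464 counts in the same order. ERBB3, the receptor of NRG1, had 826, 702, 1589 and 1052. Both were highest in the trametinib library, where the log2 fold changes of ERBB2 (0.67, interval from 0.58 to 0.76) and ERBB3 (0.93, from 0.81 to 1.05) lay above 0 by more than counting error. Against trametinib alone, the combination library held less ERBB2 (-0.86, from -0.96 to -0.77) and less ERBB3 (-0.64, from -0.76 to -0.53). ERBB4 had 0 to 2 counts in each library and was tested only in comparisons that include the trametinib library. The trametinib library thus had the lowest levels of NRG1 and the highest of its receptor ERBB3.

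Among 11 genes of ligand shedding, ADAM17 rose in the combination library and its inhibitor TIMP3 fell in both NBT-treated libraries. ADAM17, the protease that releases AREG, HBEGF and TGFA, had 1450 (control), 2192 (NBT), 1617 (trametinib) and 3463 counts (combination). It rose with the combination against control (log2 fold change 1.19, interval from 1.10 to 1.28) and against trametinib (1.05, from 0.96 to 1.14), and stood at 0.55 with NBT alone. TIMP3 had 40, 15, 54 and 19 counts, fewer in the NBT-treated libraries, and it fell with NBT (-1.44, from -2.43 to -0.58), with the combination (-1.12, from -2.01 to -0.32) and in the combination against trametinib (-1.53, from -2.39 to -0.78). ADAM19, another metalloprotease gene, fell with trametinib from 135 to 25 counts and stood at 27 with the combination. ADAM10, which releases EGF and BTC, had 2024, 1797, 1608 and 1351 counts and was not called. Of the 11 genes, 0 rose and 1 fell with NBT (2.61% of all genes called) and 0 rose and 1 fell with trametinib (5.96%). With the combination 1 rose and 2 fell (8.42%). Against trametinib 1 rose and 1 fell (6.11%), and against NBT 0 rose and 2 fell (4.36%), ADAM12 among them with 1 count against 11. Against control the list had medians of 0.01 (NBT), 0.00 (trametinib) and -0.54 (combination), beside -0.01, 0.08 and 0.05 over all genes, so that in the combination library the median lay on the other side of 0 from ADAM17.

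Of 8 inhibitors of ERBB receptors, ERRFI1 fell with trametinib and CBLB rose with the combination, and 6 were not called in any comparison. ERRFI1 was also called lower in the combination against NBT. Each of these comparisons had 1 call among the 8 genes. Of all genes, 2.15% were called lower with trametinib, 4.73% higher with the combination and 1.99% lower in the combination against NBT. In either direction the shares were 5.96%, 8.42% and 4.36%. A count of 1 in 8 is not read as a result about the list. The list's medians against control were 0.18 (NBT), -0.03 (trametinib) and 0.25 (combination). ERRFI1, a feedback inhibitor that binds the EGFR kinase, had 748 (control), 979 (NBT), 358 (trametinib) and 488 counts (combination). It followed the order of HBEGF, with log2 fold changes of -1.08 (from -1.26 to -0.89) with trametinib and -1.02 (from -1.18 to -0.86) in the combination against NBT. CBLB, a ubiquitin ligase gene of receptor turnover, had 172, 265, 303 and 527 counts, and its log2 fold change with the combination was 1.55 (from 1.30 to 1.81). Of 7 adaptor genes, 0 were called in any comparison, which is also near the background of 2.61% to 8.42% of all genes. SHC1, which links the receptors to RAS, had 2505, 3334, 1879 and 3037 counts, and GRB2 stood between 2072 and 2468 counts. Against control the adaptors had medians of -0.04 (NBT), 0.10 (trametinib) and -0.10 (combination).

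**Figure D5:**
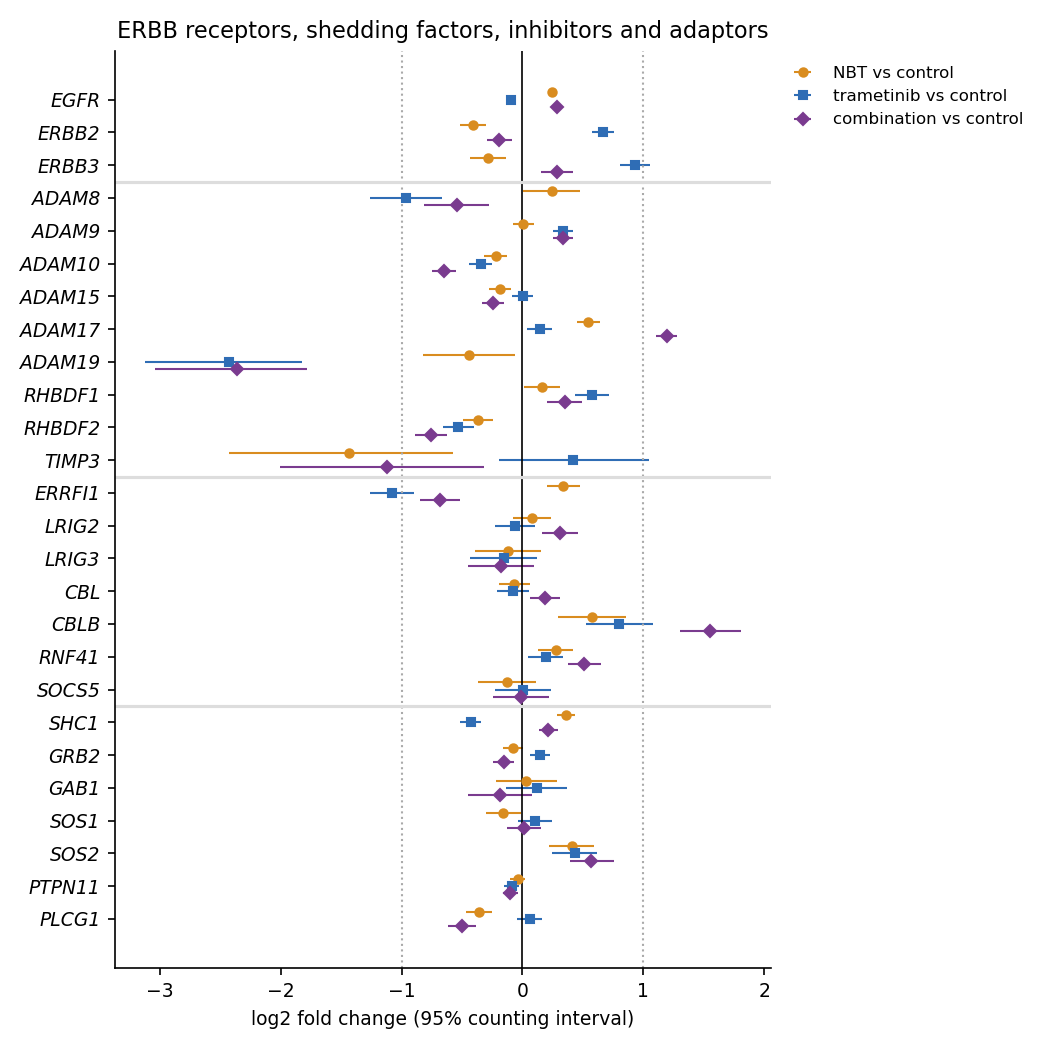
Log2 fold changes against control of 26 genes of ERBB receptors, ligand shedding, receptor inhibitors and adaptors (groups from top to bottom, separated by gray lines) with 95% counting intervals; genes with few counts are left out and dotted lines mark the limit of 1. ADAM17 (1.19) and CBLB (1.55) lie past the limit with the combination, and ADAM19 (-2.42) and ERRFI1 (-1.08) with trametinib.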

How the data were processed

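RNA of cells in 4 conditions was sequenced on the BGISEQ-500 platform as 1 library per condition. The submitters' processing notes name Bowtie2 2.2.5, RSEM 1.2.8 and the build hg38. The authors deposited, per gene and per transcript, unnormalized estimated counts, TPM values and FPKM values. Estimated counts were not whole for 53.9% of the genes (EREG and NRG1 among them), as reads matching several genes or transcripts are divided. FPKM values were not used in comparisons.

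Counts were rounded and all genes not at 0 in both libraries were tested by doubling the smaller binomial tail. With 1 to 3 counts in a library, ratios are given with their interval, and a bound at 3 counts only against 0. Intervals cover counting error only, as there was 1 library per condition. They treat reads as independent molecules, which PCR copies are not. A count of 3 corresponded to 0.153 to 0.160 CPM. Named genes were the ligands, the listed pathway genes and the nearest genes by pattern (3 each) and by position (3 each side), of which 1 is not reported here. The ligands and lists were chosen with earlier results of these data known. The calling step was run on simulated data with counting error only. These held no variation between cultures, so they cannot show how calls would hold over replicates. The alternatives were TMM and median-of-ratios scaling, TPM values (0.1 added), 5 reads added, a minimum of 10 counts, other log2 limits, summed transcript counts and an assumed variation between cultures. They used edgeR 4.0.16, DESeq2 1.42.0 and R 4.3.3, and the rest Python 3.11.15 with scipy 1.17.1. All table columns belonged to these samples. KRT19, DCN, PRSS1 and INS were also planned as markers, but they were not among the 16834 genes and could not be checked.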

Additional observations from a re-analysis of the deposited data

Results flagged for a closer look

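The log2 difference that followed NBT was compared between cells without and with trametinib, from counting error alone. The resulting differences are the departures from additivity given above, restated, and not a further result. For AREG the log2 difference that followed NBT was 1.23 without and 2.33 with trametinib, a difference of 1.10 (95% interval from 0.88 to 1.32). For NRG1 it was -0.08 without trametinib, with an interval that included 0 (from -0.17 to 0.01), and 0.76 with it, a difference of 0.84 (from 0.69 to 0.99). With the TPM values both were positive (0.0388 and 0.93), so the opposite sign depends on the unit. For TGFA it was 0.03 without and -0.15 with trametinib, each with an interval that included 0, and so did that of the difference of -0.18 (from -0.39 to 0.03). With the TPM values both were negative (-0.0368 and -0.16). With 1 library per condition, none of these differences was tested over replicates.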

How the results depend on the processing

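The 13 calls of ligands over the 5 comparisons depended on the variation assumed between cultures, which was not measured. With an edgeR negative binomial exact test at an assumed coefficient of variation of 0.1, 12 of the 13 calls stayed (BTC was lost), at 0.2 6 stayed and at 0.3, 0.4 and 0.5 0 stayed. The values 0.1, 0.3 and 0.5 were chosen after seeing the data. At 0.2 the ligands called were 0 with NBT, 2 with trametinib (HBEGF and TGFA), 1 with the combination (TGFA), 1 in the combination against trametinib (AREG) and 2 in the combination against NBT. Over all genes, in the order NBT, trametinib, combination, combination against trametinib and combination against NBT, 69, 365, 547, 302 and 204 genes were called at 0.2, and 4, 22, 51, 14 and 13 at 0.4. A log2 limit of 2 left 116, 352, 401, 252 and 251 genes, and 0 ligands except in the combination against trametinib (AREG and BTC). Without a limit 5635, 6915, 8056, 7428 and 6079 genes were called. The combination then had 4 ligands called against control, 4 against trametinib and 4 against NBT. Against trametinib the added ligand was NRG1, called higher at 0.76.

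With TMM, median-of-ratios and TPM scaling 1 ligand was called in the combination against control, since AREG dropped to 0.99, 0.98 and 0.98. The TPM values moved NRG1 to 0.0388 with NBT, -0.15 with the combination, 0.93 in the combination against trametinib and -0.19 against NBT, and the cause was not tested. The median of the ERBB receptors moved to 0.45 (TPM) and 0.57 (5 reads added) with trametinib and to -0.49 and -0.59 in the combination against trametinib, with ERBB4 at 0 to 2 counts among its members. The remaining 136 alternative values of ligand fold changes stayed within their counting intervals, the 25 departures from additivity within theirs, and 146 list medians within the typical interval of their members. A filter of 10 counts and transcript counts summed per gene moved no count of called genes by over 1.5 times, but under the filter BTC was not tested, which left 2 ligands called in the combination against trametinib. No paired analysis was possible because each condition has 1 library. No library could be left out for the same reason.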

Other observations

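The genes next to the ligands were read as positions in the RefSeq annotation (GRCh38.p14). On chromosome 4, EREG (74365145 to 74388749), AREG (74445136 to 74455005) and BTC (74744759 to 74794523) lie in a row, with EPGN before them. AREG passed the limits in 4 of the 5 comparisons, whereas EREG, 56.4 kb away, and EPGN, 128.3 kb away, passed in 0. EREG had 16 to 21 counts. EPGN had 6 or 7 counts in each library. Beyond them, 266 kb from EREG, CXCL2, the gene of a chemokine for neutrophils, had 23 (control), 96 (NBT), 43 (trametinib) and 594 counts (combination). It rose with NBT (log2 fold change 1.99) and with the combination (4.60), and not with trametinib alone (0.88). PARM1 and RCHY1, on the other side of BTC, were not called in any comparison, but PARM1 had only 0 to 3 counts in each library.

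The 3 nearest genes on each side of HBEGF (chromosome 5, 140332843 to 140346603) were not called in any comparison, nor were those of NRG1. Among them, SLC4A9 beside HBEGF and PURG near NRG1 had 0 or 1 counts in each library, too few for a call. Of the neighbors of TGFA (chromosome 2, 70447284 to 70553826), PCYOX1, 166.1 kb away, was called lower in the combination than in trametinib alone (-1.11), with 1579 (trametinib) and 757 (combination) counts. The other 5 were not called in any comparison, and FIGLA among them had 0 or 1 counts in each library.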
